A study of Mus musculus with 8 samples.

Results

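The 43 genes described here encode subunits of the Polycomb and Trithorax chromatin regulators and the acetyltransferases of active enhancers. They were chosen by gene symbol, as subunits of these complexes and with earlier results of these data known but by no threshold on a value, and each of the 43 symbols matched 1 of the 46406 entries of an expression table, 20570 of which carry a symbol. The table gives the poly(A) RNA of mouse anterior neural progenitor cells in 8 libraries. Embryonic stem cells of the E14 line were differentiated in N2B27 medium free of serum, with 10 ng/ml bFgf for the first 3 days and with 5 µM of the WNT inhibitor Xav939 from day 2 to day 5. All groups share this parental line and treatment. There were 2 libraries of clone 2 and 2 of clone 1, which are clonal lines made from E14 cells with CRISPR-Cas9 and labelled PE Lhx5(-109)-/-, and 4 libraries of the WT E14 line. Both null lines lack a poised enhancer (PE), an element named after the homeobox gene Lhx5. Each null line was grown from a single isolated cell, so that the deletion and any other change that a line carries cannot be told apart within it. The labels call the libraries of a group biological replicates.

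Polycomb and Trithorax proteins act in opposition on the chromatin of developmental genes. Polycomb repressive complex 2 (PRC2) methylates histone H3 at lysine 27 (H3K27), Polycomb repressive complex 1 (PRC1) binds that mark through CBX proteins, compacts chromatin and ubiquitinates histone H2A, and the MLL complexes of the Trithorax group methylate histone H3 at lysine 4 (H3K4). Poised enhancers carry PRC2 and H3K27 methylation together with H3K4 monomethylation in embryonic stem cells, and they exchange H3K27 methylation for acetylation when they become active in neural progenitors. The series title ties the regulatory activity of such enhancers to Polycomb, and the libraries allow the question of whether the RNA of the Polycomb and Trithorax genes themselves differed between null and WT cells.

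The check of the labels came from Lhx5, which stood at 1.90 and 1.26 FPKM in clone 2, 1.24 and 0.854 FPKM in clone 1 and 16.9, 17.5, 16.2 and 15.0 FPKM in WT. Null and WT libraries did not overlap, and its log2 fold change in null against WT was -2.93 (limma adjusted p = 8.2e-05). FPKM, fragments scaled to transcript length and to the mapped fragments of the library, summed to between 518500 and 528700 per library. Clone 1 replicate 2 stood apart: Rn7sk, Rpph1 and Rmrp, which lack poly(A) tails, were at 250.2, 371 and 112 FPKM there and at no more than 28.4, 22.8 and 7.62 FPKM in any other library. The 9 neural progenitor markers summed to 465 to 509 FPKM in clone 2, 406 to 448 FPKM in clone 1 and 456 to 474 FPKM in WT, and the defining markers Sox1, Sox2, Pax6 and Nes were present in every library. Single markers changed within that sum by limma: Sox1, Nes, Vim and Cdh2 rose in clone 2 and Pax6 fell there, with a mean of 14.5 FPKM in clone 2, against 38.6 FPKM in WT (log2 fold change -1.39, adjusted p = 0.005). In clone 1, Sox1, Nes and Cdh2 fell, with log2 fold changes of -0.55, -0.45 and -0.63. The part of such marker differences in the values of the 43 genes was not tested. The 10 pluripotency markers summed to 74.6 to 84.9 FPKM in clone 2, 174 to 194 FPKM in clone 1 and 100.3 to 127 FPKM in WT. The 5 endoderm, 5 mesoderm and 3 neural crest markers each averaged under 1 FPKM. As these are bulk samples, fewer cells of a type and less RNA per cell cannot be told apart.

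All 43 genes were expressed: none was listed at 0 FPKM in any library, and all 43 passed the filter of a mean of at least 1 FPKM that left 14521 genes for testing. In WT cells their mean levels ran from 1.93 FPKM (Pcgf5) to 149.9 FPKM (Ezh2), with a median of 22.6 FPKM. Ezh2, the main H3K27 methyltransferase of dividing cells, Rbbp4 and Rbbp7, the histone-binding subunits of PRC2, and Phc2, a polyhomeotic subunit of PRC1, were the 4 most abundant. Phf19 and Pcgf5 averaged under 2 FPKM in WT. The WT libraries varied little among themselves: their coefficient of variation was below 10 percent for 38 of the 43 genes, and the other 5 were Ezh1, Pcgf1, Pcgf5, Cbx7 and Cbx8. The map of all members by library shows the WT columns near 0 throughout and the largest departures in the rows of Cbx7, Bmi1, Ezh1 and Ring1.

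**Figure D1:**
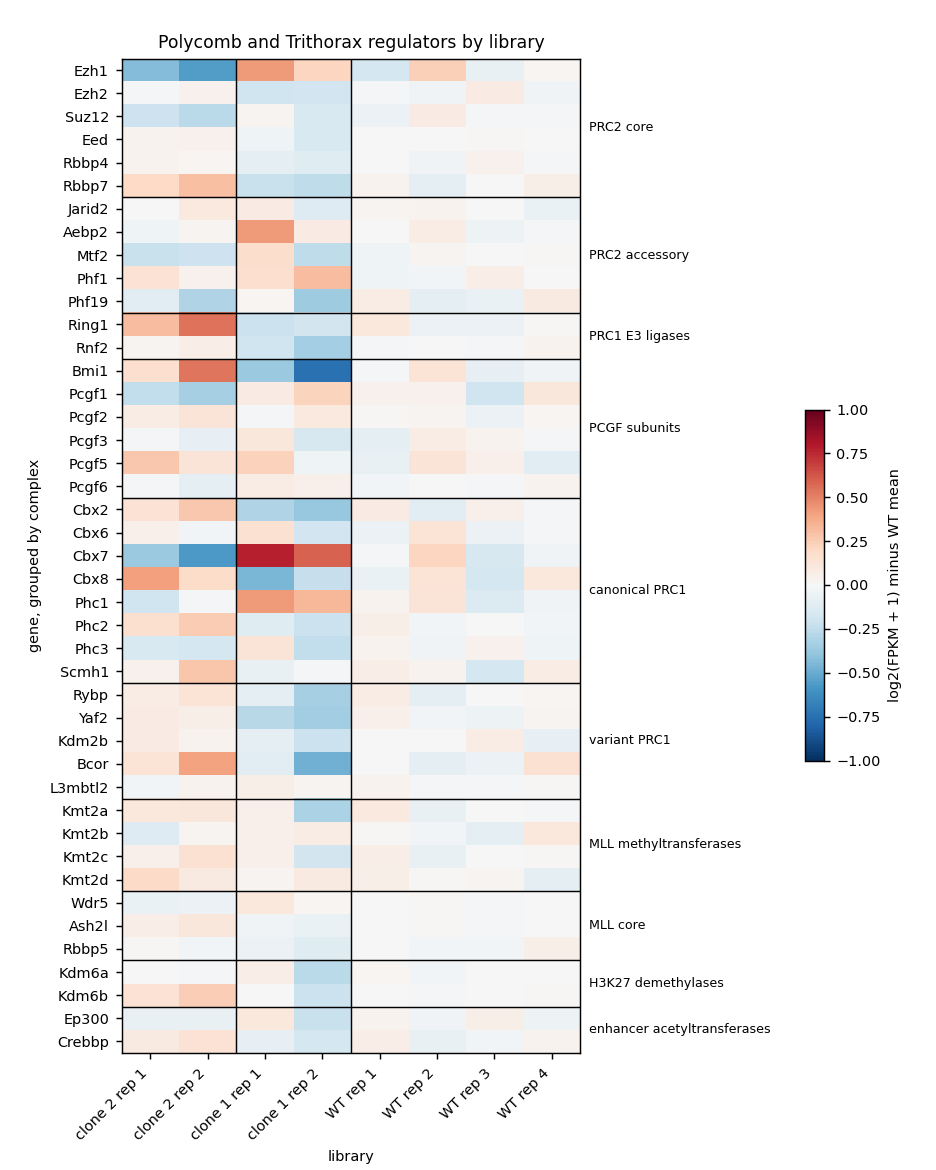
Each of the 43 genes in each library, as log2(FPKM + 1) minus the WT mean, with genes in rows grouped by complex and libraries in columns (clone 2, clone 1, WT). Cbx7 is low in both clone 2 libraries and high in both clone 1 libraries, Bmi1 shows the opposite, and clone 1 replicate 2 is lower than clone 1 replicate 1 in 34 of the 43 rows.

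With the 4 null libraries as a single group against the 4 WT libraries, no Polycomb or Trithorax gene passed the test. None of the 43 passed an adjusted p of 0.05 in limma, against 0.0551 percent of all genes tested, and none reached an unadjusted p of 0.05, against 4.74 percent of all genes. The largest estimates were a log2 fold change of 0.17 for Phf1, a Polycomb-like subunit of PRC2 (95% confidence interval -0.002 to 0.338), and -0.19 for its relative Phf19 (95% confidence interval -0.433 to 0.06). Exons of the more abundant Cuta, at a mean of 69.3 FPKM, overlap Phf1 on the opposite strand. Its part in the Phf1 values was not tested. All log2 fold changes here are on the log2(FPKM + 1) scale, which understates changes of low genes. Their median over the 43 genes was -0.012, beside -0.025 over all genes. The null mean divided by the WT mean lay between 0.821 (Phf19) and 1.17 (Cbx7). No member had all null libraries on a single side of all WT libraries, while 4.26 percent of all genes did.

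How closely a null difference was bounded depended on the gene. The 95% confidence interval reached 0.096 to each side of the estimate for L3mbtl2, a PRC1.6 subunit, and 0.72 for Cbx7, with a median of 0.204 over the members. The fit behind the intervals for null against WT takes the 4 null libraries as independent, although they come from 2 lines. Libraries of a line had a consensus correlation of 0.656, so the intervals cover the spread between lines only in part. For Ezh2 it ran from -0.238 to 0.06, for Suz12, the scaffold of PRC2, from -0.31 to 0.01, and for Rnf2, the main ubiquitin ligase of PRC1, from -0.315 to 0.093. The widest intervals belonged to Cbx7, Bmi1 and Ezh1, whose means in the 2 clones lay on opposite sides of the WT mean. The p-values in the authors' deposited table, whose test is not stated, were below 0.05 without adjustment for 4 members: Jarid2, with a deposited fold, null over WT, of 1.07 and a p of 0.0018, Kmt2d, Phf1 and Aebp2. That is 9.30 percent of the members, against 6.84 percent of all tested genes with a deposited p. After Benjamini-Hochberg adjustment of those deposited values over 28134 genes with reads, none of the 43 passed, and Jarid2 had an adjusted p of 0.16.

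Taken separately, each clone had members that passed against WT. In clone 2, Ring1, Rbbp7 and Phc2 rose, and Ezh1, Cbx7 and Suz12 fell, relative to WT. In clone 1, Cbx7 and Phc1 rose, and Bmi1, Cbx2, Yaf2, Rnf2, Rbbp7, Ezh2 and Phc2 fell, relative to WT. The 2 comparisons share the 4 WT libraries. The 6 members that passed in clone 2 are 13.95 percent of the 43, beside 14.0 percent of all genes (7.06 percent higher and 6.96 percent lower), and the 9 that passed in clone 1 are 20.9 percent, beside 15.6 percent of all genes (4.16 percent higher and 11.4 percent lower). The counts are therefore near the share of all genes, and the members are described below for which genes moved and not for how many. The median log2 fold change of the 43 genes was 0.048 in clone 2 and -0.063 in clone 1, beside 0 and -0.048 over all genes.

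These calls rest on few libraries. Without clone 1 replicate 2, the library that stands apart, most clone 1 calls were lost, and calls over all genes also became fewer. The median log2 fold change of the members in clone 1 was then 0.025, beside -0.012 over all genes. Without clone 1 replicate 1 it was -0.179, beside -0.092 over all genes, and lower calls became more frequent in both. The clone 2 calls were lost without clone 2 replicate 2, where calls over all genes also became fewer, and those of Ezh1 and Suz12 without clone 2 replicate 1. Each of these fits leaves 1 library in a clone. Leaving out WT replicate 4 left 2 members higher and 0 lower in clone 2, beside 2.75 and 2.48 percent of all genes. When the libraries were rescaled to a common median ratio, clone 1 had 4 members higher and 4 lower, beside 6.8 and 6.67 percent of all genes. The clone 1 calls of Ezh2, Phc2 and Rbbp7 were then lost. With no filter on low values, Bmi1 and Phc2 were lost in clone 1, and Cbx7, Ezh1, Phc2 and Suz12 in clone 2. The sign of each called fold change was kept in all these settings.

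**Figure D2:**
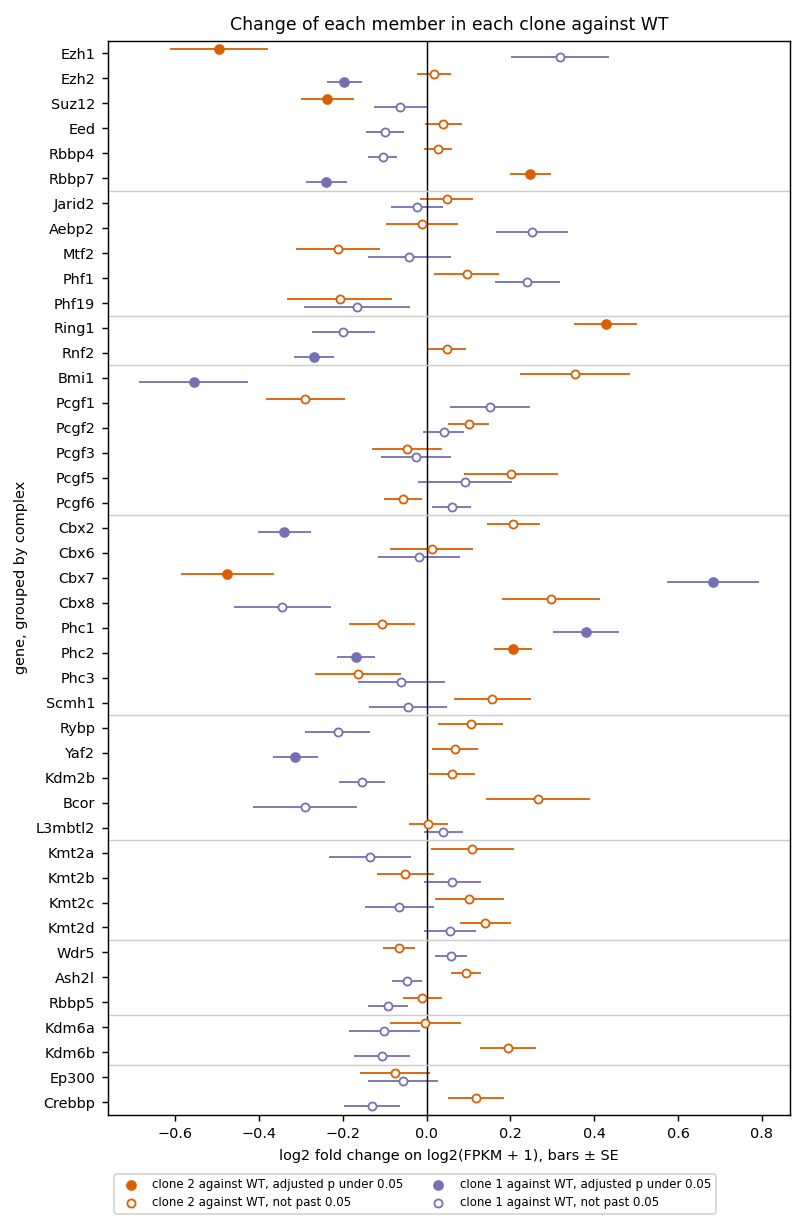
Log2 fold change on log2(FPKM + 1) of each gene against WT in clone 2 (orange) and clone 1 (purple), with bars of ± 1 SE; filled points passed an adjusted p of 0.05. The filled points of Rbbp7, Cbx7 and Phc2 lie on opposite sides of 0 in the 2 clones. The PRC2 accessory, Kmt2, MLL core, Kdm6 and acetyltransferase rows hold open points only.

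The direct comparison of clone 2 with clone 1, which have the same labelled genotype, called 20 of the 43 genes. Relative to clone 1, 16 members were higher in clone 2, led by Bmi1, Cbx8, Ring1, Bcor and Cbx2, and 4 were lower, namely Cbx7, Ezh1, Phc1 and Pcgf1. That is 46.5 percent of the members, with 37.2 percent higher and 9.30 percent lower, beside 39.9 percent of all genes, with 24.9 percent higher and 15.0 percent lower. The balance of directions depends on scaling, for the members and for all genes. After rescaling to a common median ratio, 11 members were higher and 8 lower, beside 19.8 and 20.7 percent of all genes. The calls of Ash2l, Crebbp, Ezh2, Kdm2b and Rbbp4 were then lost. The split also moved, as did that over all genes, without clone 1 replicate 2 or without clone 2 replicate 2, fits that leave 1 library in a clone. Of the 20 calls, 11 were kept under all 13 alternatives: Cbx7, Ezh1 and Phc1, lower in clone 2, and Bmi1, Cbx2, Cbx8, Phc2, Rbbp7, Ring1, Rnf2 and Yaf2, higher in clone 2. In 12 members, 27.9 percent, both libraries of each clone lay outside the range of the WT libraries on opposite sides, beside 20.2 percent of all genes.

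Rbbp7, Cbx7 and Phc2 passed the test in each clone against WT, with opposite signs, and the sequences before their start sites are shown so that these 3 loci can be inspected. The windows come from RefSeq on GRCm38.p6, run 5′ to 3′ on the strand of the gene, and cover 250 bases before to 50 bases after the annotated start. Capitals mark CG dinucleotides, the motif of CpG islands, which the CXXC domains of KDM2B, KMT2A and KMT2B bind when it is unmethylated.
Rbbp7 chrX:162760122-162760421: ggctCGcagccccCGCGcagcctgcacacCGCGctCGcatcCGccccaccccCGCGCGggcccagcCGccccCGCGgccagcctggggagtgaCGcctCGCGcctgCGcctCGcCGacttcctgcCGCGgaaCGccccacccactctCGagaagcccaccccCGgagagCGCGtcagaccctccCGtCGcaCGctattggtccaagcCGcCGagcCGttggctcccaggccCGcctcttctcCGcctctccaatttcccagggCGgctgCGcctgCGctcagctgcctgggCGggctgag
Cbx7 chr15:79932597-79932896: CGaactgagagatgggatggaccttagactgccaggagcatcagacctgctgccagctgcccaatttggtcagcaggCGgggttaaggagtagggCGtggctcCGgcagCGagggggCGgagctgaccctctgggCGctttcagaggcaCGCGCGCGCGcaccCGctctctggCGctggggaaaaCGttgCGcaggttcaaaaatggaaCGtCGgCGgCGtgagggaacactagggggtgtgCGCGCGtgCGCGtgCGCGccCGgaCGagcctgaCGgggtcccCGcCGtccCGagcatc
Phc2 chr4:128654452-128654751: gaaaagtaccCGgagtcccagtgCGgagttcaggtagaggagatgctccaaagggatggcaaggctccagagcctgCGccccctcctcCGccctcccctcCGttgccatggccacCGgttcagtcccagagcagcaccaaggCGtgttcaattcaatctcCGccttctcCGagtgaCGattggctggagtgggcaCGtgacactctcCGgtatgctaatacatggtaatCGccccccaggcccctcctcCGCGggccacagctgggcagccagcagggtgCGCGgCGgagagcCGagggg
The CG dinucleotide occurs 38 times in the 300 bases of Rbbp7, 33 times in those of Cbx7 and 19 times in those of Phc2, the first of 3 windows listed for that gene. Among the 36 members with such a window the median was 24, with a range of 4 (Aebp2) to 56, against a median of 7 over 27018 genes. The Rbbp7 and Phc2 windows lie on the plus strand and the Cbx7 window on the minus strand. The Cbx7 window lies inside the GENCODE span of the gene (chr15:79915807-79971119) and not at its 5′ end, as the RefSeq and GENCODE starts differ.

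Within canonical PRC1, the RNAs of 2 CBX proteins that read H3K27 methylation changed in opposite directions in clone 1, where Cbx7 rose and Cbx2 fell. Cbx7 (chr15:79915807-79971119, minus strand), the main CBX protein of PRC1 in mouse embryonic stem cells, stood at 9.48 and 8.13 FPKM in the clone 2 libraries, 22.3 and 19.5 FPKM in the clone 1 libraries and 12.4, 14.8, 11.1 and 12.3 FPKM in the WT libraries. The 3 groups did not overlap, with clone 2 lowest and clone 1 highest. Its log2 fold change was -0.47 (SE 0.11, adjusted p = 0.027) in clone 2 against WT, 0.68 (SE 0.11, adjusted p = 0.0083) in clone 1 against WT and -1.16 (SE 0.13, adjusted p = 0.00047) in clone 2 against clone 1, all by limma. The clone 1 call held without clone 1 replicate 2, whereas the clone 2 call was lost without clone 2 replicate 2 (adjusted p = 0.26) or WT replicate 4 (adjusted p = 0.060).

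Cbx2 and Cbx8, the CBX genes known to take over from Cbx7 when mouse embryonic stem cells differentiate, had the reverse order. Cbx2 (chr11:119022962-119031270, plus strand) stood at 58.4 and 63.6 FPKM in clone 2, 42.5 and 40.2 FPKM in clone 1 and 55.7, 48.5, 54.5 and 52.1 FPKM in WT. Both clone 2 libraries were above and both clone 1 libraries below all WT libraries. Its log2 fold change was 0.55 (SE 0.073, adjusted p = 0.00095) in clone 2 against clone 1 and -0.34 (SE 0.063, adjusted p = 0.012) in clone 1 against WT, where the adjusted p was 0.090 without clone 1 replicate 2. Cbx8 (chr11:119036305-119040969, minus strand), its neighbour, stood at 7.47 and 6.22 FPKM in clone 2, 3.65 and 4.42 FPKM in clone 1 and 5.08, 6.01, 4.65 and 5.84 FPKM in WT, with the groups again apart. It was higher in clone 2 than in clone 1 by 0.64 (SE 0.13, adjusted p = 0.0062), and passed against WT in neither clone. Cbx6, a CBX gene expressed in the nervous system, overlapped in all groups, at 18.3 and 17.2 FPKM in clone 2, 19.7 and 15.3 FPKM in clone 1 and 16.8, 19.4, 16.8 and 17.4 FPKM in WT.

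The exons of Cbx7 overlap those of Apobec3, an innate immune cytidine deaminase, on the opposite strand. Apobec3 stood at 11.1 and 9.47 FPKM in clone 2, 15.1 and 13.7 FPKM in clone 1 and 11.1, 12.3, 12.2 and 11.7 FPKM in WT, so that it also was lowest in clone 2 and highest in clone 1. Its log2 fold change between clone 2 and clone 1 was -0.45 with an adjusted p of 0.0052. No source used here says if the counting used strand, and without it reads from the shared exons cannot be told apart. Of the 10 pluripotency markers 6 were tested, and all 6 passed as lower in clone 2 than in clone 1, beside 15.0 percent of all genes. All 6 also passed as higher in clone 1 than in WT, beside 4.16 percent of all genes. Against WT, Nanog and Dnmt3b fell in clone 2, while Dppa4 and Utf1 had log2 fold changes there of 0.008 and 0.044. The other 4, which averaged too low to be tested, did not share that order: Klf4 averaged 0.676 FPKM in clone 2, 0.288 FPKM in clone 1 and 0.492 FPKM in WT, and Zfp42, Esrrb and Tdgf1 also had lower means in clone 1 than in WT. Pou5f1, the core pluripotency factor, was at 14.3 and 10.9 FPKM in clone 2, 52.4 and 48.5 FPKM in clone 1 and 18.8, 30.4, 18.7 and 22.5 FPKM in WT. The part of residual pluripotent cells in the Cbx7 values was not tested.

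**Figure D3:**
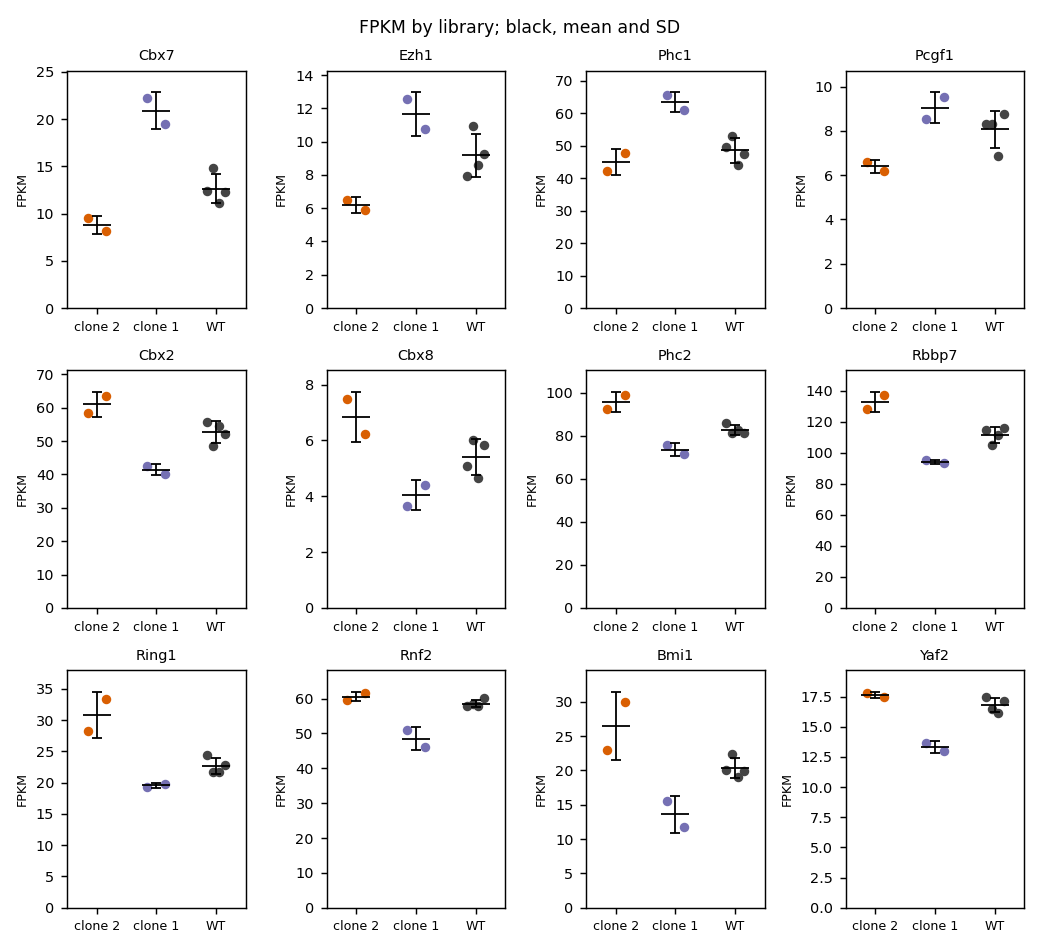
FPKM of 12 genes in each library of clone 2 (orange), clone 1 (purple) and WT (grey), with the mean and SD of each group in black and axes that start at 0. Cbx7, Ezh1, Phc1 and Pcgf1 have the lowest mean in clone 2 and the highest in clone 1, and the other 8 genes show the reverse, with Cbx7 at 8.13 to 9.48 FPKM in clone 2 against 19.5 to 22.3 FPKM in clone 1.

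The polyhomeotic genes, whose SAM domains polymerise PRC1, split in the same way. Phc1 (chr6:122317731-122340561, minus strand), the form that prevails in mouse embryonic stem cells, was at 42.1 and 47.8 FPKM in the clone 2 libraries, 65.5 and 61.1 FPKM in the clone 1 libraries and 49.7, 53.0, 44.0 and 47.3 FPKM in the WT libraries. Clone 1 lay above every other library, while clone 2 overlapped WT. Phc1 rose in clone 1 by 0.38 (SE 0.079, adjusted p = 0.017) and was lower in clone 2 than in clone 1 by -0.49 (SE 0.091, adjusted p = 0.0038). Phc2 (chr4:128654702-128752881, plus strand), the most abundant of the 3, was at 92.4 and 98.9 FPKM in clone 2, 75.8 and 71.3 FPKM in clone 1 and 86.0, 81.2, 82.6 and 81.1 FPKM in WT, with clone 2 above and clone 1 below all WT libraries. Phc2 rose in clone 2 by 0.21 (SE 0.046, adjusted p = 0.023) and fell in clone 1 with a log2 fold change of -0.17 (SE 0.046, adjusted p = 0.04). The Phc1 call in clone 1 was lost without either clone 1 library, where its adjusted p rose to at most 0.076, while both genes kept their call between the clones. The Phc2 call in clone 2 was lost without clone 2 replicate 2, WT replicate 3 or WT replicate 4, and that in clone 1 without clone 1 replicate 2 or WT replicate 1, 3 or 4, or on rescaling to a common median ratio (adjusted p = 0.13). Phc3 was much lower, at 3.64 to 5.02 FPKM in all 8 libraries, and Scmh1, a SAM-domain partner, was at 11.9 and 14.2 FPKM in clone 2, 10.9 and 11.4 FPKM in clone 1 and 12.1, 11.9, 10.1 and 12.2 FPKM in WT. Neither passed in any comparison.

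Both ubiquitin ligases of PRC1, which place the H2A mark, were higher in clone 2 than in clone 1. Ring1 (chr17:34020792-34024680, minus strand) stood at 28.3 and 33.4 FPKM in the clone 2 libraries, 19.3 and 19.8 FPKM in the clone 1 libraries and 24.4, 21.7, 21.7 and 22.8 FPKM in the WT libraries. Clone 2 was above and clone 1 below all WT libraries. Ring1 rose in clone 2 by 0.43 (SE 0.075, adjusted p = 0.012), with an adjusted p of 0.14 without clone 2 replicate 2, and was higher in clone 2 than in clone 1 by 0.63 (SE 0.087, adjusted p = 0.0011). Rnf2 (chr1:151458004-151500955, minus strand), also called RING1B and the more abundant ligase here, was at 59.6 and 61.5 FPKM in clone 2, 50.8 and 46.1 FPKM in clone 1 and 57.9, 58.5, 57.7 and 60.1 FPKM in WT. Clone 1 lay below every other library, and clone 2 overlapped WT. The fall of Rnf2 in clone 1, with a log2 fold change of -0.27 (SE 0.047, adjusted p = 0.01), was not called without clone 1 replicate 2, and its difference between clone 2 and clone 1 was 0.32 (SE 0.054, adjusted p = 0.0026). Exons of Trmt1l, a tRNA-modifying enzyme, overlap Rnf2 on the opposite strand, and Trmt1l was lower in clone 2, at 15.0 and 15.8 FPKM, than in clone 1, at 20.7 and 19.6 FPKM (adjusted p = 0.0029), the opposite order to Rnf2.

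PCGF proteins pair with the RING ligases and set which PRC1 forms. Bmi1 (chr2:18677018-18686629, plus strand), also called PCGF4 and known for self-renewal of neural stem cells, had the largest difference of this group. It stood at 23.0 and 30.0 FPKM in the clone 2 libraries, 15.5 and 11.7 FPKM in the clone 1 libraries and 20.1, 22.4, 19.1 and 19.9 FPKM in the WT libraries, with the groups apart and clone 2 highest. Bmi1 was higher in clone 2 than in clone 1 by 0.91 (SE 0.15, adjusted p = 0.0027) and fell in clone 1 against WT, with a log2 fold change of -0.56 (SE 0.13, adjusted p = 0.028). That fall was lost without clone 1 replicate 2 and without WT replicate 1, 3 or 4, with an adjusted p of up to 0.17.

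Pcgf1 (chr6:83077869-83080855, plus strand), the PCGF of the KDM2B and BCOR complex, moved the other way, at 6.61 and 6.19 FPKM in clone 2, 8.55 and 9.54 FPKM in clone 1 and 8.32, 8.31, 6.87 and 8.76 FPKM in WT. Clone 2 was below all WT libraries, and clone 1 overlapped WT. Only its difference between clone 2 and clone 1 passed, at -0.44 (SE 0.11, adjusted p = 0.013), and it was lost without clone 1 replicate 2 or clone 2 replicate 2. Pcgf2, or MEL18, the partner of canonical PRC1 beside BMI1, was at 52.6 and 54.8 FPKM in clone 2, 49.3 and 53.7 FPKM in clone 1 and 50.5, 51.0, 48.0 and 50.8 FPKM in WT and did not pass. Pcgf3, Pcgf5 and Pcgf6, which belong to further variant complexes, averaged 16.7, 2.36 and 24.6 FPKM in clone 2, 17.0, 2.13 and 26.7 FPKM in clone 1 and 17.3, 1.93 and 25.6 FPKM in WT, and none passed.

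Besides the PCGF subunits above, 5 of the genes encode subunits of variant PRC1, which needs no CBX protein. Of these 5, 4 were higher in clone 2 than in clone 1, beside 24.9 percent of all genes. Among the PCGF subunits of variant complexes, Pcgf1 was lower in clone 2, and Pcgf3, Pcgf5 and Pcgf6 did not pass. Of the 4 higher calls, only that of Yaf2 held with each library left out in turn. Yaf2 (chr15:93284278-93336935, minus strand), the paralogue of RYBP that holds variant PRC1 together, was at 17.8 and 17.5 FPKM in the clone 2 libraries, 13.7 and 13.0 FPKM in the clone 1 libraries and 17.5, 16.5, 16.2 and 17.1 FPKM in the WT libraries. Both clone 1 libraries were below every other library. Yaf2 fell in clone 1 with a log2 fold change of -0.31 (SE 0.055, adjusted p = 0.01) and differed between clone 2 and clone 1 by 0.38 (SE 0.063, adjusted p = 0.0022). The fall in clone 1 had an adjusted p of 0.057 without clone 1 replicate 2. Rybp (chr6:100228565-100287485, minus strand) was at 19.7 and 20.6 FPKM in clone 2, 17.5 and 14.6 FPKM in clone 1 and 19.7, 17.4, 18.8 and 19.0 FPKM in WT, with a difference between clone 2 and clone 1 of 0.32 (SE 0.09, adjusted p = 0.022).

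Kdm2b (chr5:122870665-122989823, minus strand), the subunit that binds CpG islands, was at 42.0 and 40.6 FPKM in clone 2, 37.0 and 34.0 FPKM in clone 1 and 39.6, 39.6, 41.7 and 37.4 FPKM in WT and higher in clone 2 than in clone 1 by 0.21 (SE 0.064, adjusted p = 0.028). Bcor (chrX:12036740-12160355, minus strand), a corepressor of the same complex, was at 8.61 and 10.5 FPKM in clone 2, 7.16 and 5.29 FPKM in clone 1 and 7.78, 7.16, 7.42 and 8.74 FPKM in WT and higher in clone 2 than in clone 1 by 0.56 (SE 0.14, adjusted p = 0.015). For Bcor, clone 1 replicate 2 was the lowest of the 8 libraries and clone 2 replicate 2 the highest. The calls of Rybp, Kdm2b and Bcor were each lost without clone 1 replicate 2 and without clone 2 replicate 2, and those of Rybp and Kdm2b also without clone 2 replicate 1, with adjusted p of up to 0.12, 0.12 and 0.11. Exons of Rnf34, another ubiquitin ligase, overlap Kdm2b on the opposite strand, and Rnf34 stood at 23.2 and 26.99 FPKM in clone 2, 20.5 and 18.4 FPKM in clone 1 and 26.1, 23.6, 23.4 and 27.4 FPKM in WT. It too was higher in clone 2 than in clone 1, by 0.35 (adjusted p = 0.023). L3mbtl2 hardly varied, at 23.0 to 24.5 FPKM over all 8 libraries.

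In the PRC2 core, the 2 catalytic paralogues behaved differently. Ezh1 (chr11:101191115-101226463, minus strand), the methyltransferase known to prevail in cells that have stopped dividing, stood at 6.52 and 5.86 FPKM in the clone 2 libraries, 12.6 and 10.8 FPKM in the clone 1 libraries and 7.95, 11.0, 8.60 and 9.24 FPKM in the WT libraries. Clone 2 was below all WT libraries, and clone 1 overlapped WT through WT replicate 2. Ezh1 fell in clone 2 with a log2 fold change of -0.50 (SE 0.12, adjusted p = 0.028) and was lower in clone 2 than in clone 1 by -0.81 (SE 0.14, adjusted p = 0.0023). The fall against WT was lost when any 1 of 4 libraries was left out, namely clone 2 replicate 1, clone 2 replicate 2, WT replicate 3 and WT replicate 4, with an adjusted p of up to 0.25. Of the 4 tested neuron markers, Stmn2 and Elavl3 also fell in clone 2 against WT, with log2 fold changes of -0.65 (adjusted p = 0.018) and -0.41 (adjusted p = 0.025), and both were lower in clone 2 than in clone 1. Map2 and Rbfox3 did not share that order, with log2 fold changes of 0.023 and -0.142 in clone 2 against WT. Between clone 2 and clone 1 theirs were 0.431 and 0.006. Dcx, too low to be tested, averaged 0.123 FPKM in clone 2 and 0.00516 FPKM in clone 1. The neuron markers, 5 of 6 found, summed to 56.6 to 57.7 FPKM in clone 2, 61.9 to 69.8 FPKM in clone 1 and 69.1 to 72.2 FPKM in WT, and their part in the Ezh1 values was not tested.

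Ezh2 (chr6:47530139-47595341, minus strand), far more abundant in every group, was at 149 and 155 FPKM in clone 2, 130.5 and 131 FPKM in clone 1 and 148, 146, 158 and 146 FPKM in WT. Clone 1 lay below every other library, and clone 2 overlapped WT. Ezh2 fell in clone 1 with a log2 fold change of -0.20 (SE 0.041, adjusted p = 0.017), a call lost without clone 1 replicate 2, and was higher in clone 2 than in clone 1 by 0.21 (SE 0.047, adjusted p = 0.0078), a call lost without clone 2 replicate 2. Both calls were also lost on rescaling to a common median ratio, with adjusted p of 0.10 in clone 1 and 0.066 between the clones. Suz12 (chr11:79993106-80034123, plus strand) was at 31.2 and 29.7 FPKM in clone 2, 36.8 and 32.3 FPKM in clone 1 and 34.6, 38.3, 35.7 and 35.8 FPKM in WT and fell in clone 2 with a log2 fold change of -0.24 (SE 0.064, adjusted p = 0.041), a call lost when any 1 of the 2 clone 2 or 4 WT libraries was left out. Eed, the subunit that binds the H3K27 mark, varied little, at 37.8 and 38.1 FPKM in clone 2, 35.8 and 33.0 FPKM in clone 1 and 36.8, 36.9, 37.1 and 36.7 FPKM in WT. It did not pass in any comparison, although clone 2 lay above and clone 1 below all WT libraries.

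Rbbp7 (chrX:162760402-162779092, plus strand) and Rbbp4, the histone-binding WD40 proteins of PRC2 that also serve histone deacetylase complexes, were not changed to the same degree. Rbbp7 was at 128 and 137 FPKM in the clone 2 libraries, 95.3 and 93.4 FPKM in the clone 1 libraries and 114, 105, 111 and 116 FPKM in the WT libraries. The groups did not overlap, with clone 2 highest and clone 1 lowest. Rbbp7 rose in clone 2 by 0.25 (SE 0.049, adjusted p = 0.018), fell in clone 1 with a log2 fold change of -0.24 (SE 0.049, adjusted p = 0.016), and differed between clone 2 and clone 1 by 0.49 (SE 0.056, adjusted p = 0.00055). The call in clone 2 was lost without clone 2 replicate 2, and that in clone 1 without clone 1 replicate 2 or on rescaling to a common median ratio (adjusted p = 0.062). Txlng, whose exons overlap Rbbp7 on the opposite strand, had a log2 fold change of 0.16 between the clones and did not pass. Exons of tested genes on the opposite strand also overlap Rbbp4 (Gm26722), Suz12 (Gm26563), Eed (E230029C05Rik), L3mbtl2 (Chadl), Mtf2 (Tmed5) and Phf1 (Cuta), and those of Npcd overlap Cbx6 on the same strand. As with Cbx7 and Apobec3, reads from such shared exons cannot be told apart if the counting ignored strand. Rbbp4 (chr4:129307100-129335370, minus strand) was at 120.1 and 119 FPKM in clone 2, 109.8 and 108 FPKM in clone 1 and 117, 114, 121 and 116 FPKM in WT, and differed between clone 2 and clone 1 by 0.13 (SE 0.039, adjusted p = 0.027), a call lost without clone 1 replicate 2, clone 2 replicate 1, clone 2 replicate 2 or WT replicate 4.

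None of the 5 PRC2 accessory genes passed in any comparison. Jarid2, which guides PRC2 to its targets, was at 48.1 and 51.6 FPKM in clone 2, 50.9 and 44.0 FPKM in clone 1 and 49.0, 49.3, 48.2 and 46.0 FPKM in WT, and the groups overlapped. Aebp2, its partner in PRC2.2, had the smallest p of the group between the clones, at 34.8 and 36.6 FPKM in clone 2, 48.6 and 38.0 FPKM in clone 1 and 36.1, 37.8, 34.6 and 35.4 FPKM in WT, with a log2 fold change of -0.26 in clone 2 against clone 1 and an adjusted p of 0.065. Of the Polycomb-like proteins of PRC2.1, Mtf2 was the most abundant, at 49.99 and 50.5 FPKM in clone 2, 66.0 and 48.7 FPKM in clone 1 and 56.7, 59.4, 58.6 and 58.7 FPKM in WT, where the 2 clone 1 libraries lay above and below all WT libraries. Phf1 was at 4.16 and 3.82 FPKM in clone 2, 4.26 and 4.79 FPKM in clone 1 and 3.52, 3.59, 3.89 and 3.68 FPKM in WT and Phf19 at 1.72 and 1.37 FPKM in clone 2, 1.98 and 1.29 FPKM in clone 1 and 2.08, 1.74, 1.80 and 2.11 FPKM in WT. Both values of clone 1 for Phf1 were above WT, with an adjusted p of 0.068.

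The 4 MLL methyltransferases did not pass in any comparison. Kmt2a, or MLL1, which keeps developmental genes active, was at 13.6 and 13.6 FPKM in clone 2, 13.0 and 9.82 FPKM in clone 1 and 13.5, 11.9, 12.4 and 12.3 FPKM in WT, and clone 1 replicate 2 was the lowest library. Kmt2b, which places H3K4 trimethylation at bivalent promoters, was at 22.3 to 26.5 FPKM and Kmt2c at 6.19 to 8.05 FPKM in the 8 libraries. Kmt2d, the main H3K4 monomethyltransferase of enhancers together with Kmt2c, had the smallest p of the group, with 21.2 and 19.6 FPKM in clone 2, 18.8 and 19.6 FPKM in clone 1 and 19.2, 18.6, 18.8 and 17.2 FPKM in WT and a log2 fold change of 0.14 (SE 0.061, adjusted p = 0.16) in clone 2 against WT. Among the core subunits that all MLL complexes share, Ash2l (chr8:25815996-25847694, minus strand) was at 65.0 and 67.2 FPKM in clone 2, 60.6 and 59.2 FPKM in clone 1 and 62.0, 62.6, 61.0 and 62.2 FPKM in WT. It was higher in clone 2 than in clone 1 by 0.14 (SE 0.041, adjusted p = 0.026), a call lost without clone 1 replicate 2, clone 2 replicate 2 or WT replicate 4. Wdr5, the subunit that docks histone H3, was at 53.8 and 54.1 FPKM in clone 2, 60.7 and 57.2 FPKM in clone 1 and 56.4, 57.1, 56.1 and 56.5 FPKM in WT, with clone 2 below and clone 1 above all WT libraries and an adjusted p of 0.052 between the clones. Rbbp5 was at 28.7 to 32.6 FPKM.

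Of the enzymes that remove H3K27 methylation, Kdm6b (chr11:69398508-69413675, minus strand), or JMJD3, was at 20.6 and 22.1 FPKM in clone 2, 18.5 and 15.8 FPKM in clone 1 and 18.6, 18.3, 18.6 and 18.7 FPKM in WT. Clone 2 was above every other library, and clone 1 overlapped WT. It was higher in clone 2 than in clone 1 by 0.30 (SE 0.077, adjusted p = 0.014), a call lost without clone 2 replicate 2. Kdm6a, or UTX, was at 14.4 and 14.2 FPKM in clone 2, 15.1 and 11.7 FPKM in clone 1 and 14.6, 14.1, 14.4 and 14.3 FPKM in WT and did not pass. Its Y-linked paralogue Uty, which is not among the 43 genes, differed far more, at 0.155 and 0.159 FPKM in clone 2, 13.9 and 11.4 FPKM in clone 1 and 5.06, 5.63, 5.69 and 5.24 FPKM in WT. The log2 fold change of Uty was -2.47 in clone 2 against WT and 1.08 in clone 1 against WT, with adjusted p of 3.2e-06 and 0.00068. Kdm5d, a Y-linked H3K4 demethylase, was at or below 0.149 FPKM in all 8 libraries. Of the acetyltransferases that place the active mark on enhancers, Ep300 did not pass, at 28.6 and 28.6 FPKM in clone 2, 32.6 and 25.7 FPKM in clone 1 and 30.8, 29.3, 31.4 and 29.0 FPKM in WT. Crebbp (chr16:4081328-4213997, minus strand), its paralogue CBP, was at 9.64 and 10.1 FPKM in clone 2, 8.46 and 7.84 FPKM in clone 1 and 9.49, 8.52, 8.82 and 9.23 FPKM in WT and higher in clone 2 than in clone 1 by 0.25 (SE 0.077, adjusted p = 0.032), a call lost when any 1 of 5 libraries was left out.

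Since paralogues can stand in for each other within a complex, each gene was also given as its share of the summed FPKM of its paralogues, a value that a scaling of the whole library leaves as it is. Cbx7 made up 10.1 and 8.54 percent in clone 2, 25.3 and 24.5 percent in clone 1 and 13.8, 16.7, 12.8 and 14.0 percent in WT of the FPKM of Cbx2, Cbx6, Cbx7 and Cbx8. The corresponding share of Cbx2 was 64.6 ± 3.1 percent in clone 2, 49.5 ± 1.7 percent in clone 1 and 59.7 ± 3.6 percent in WT (SD, n = 2, 2 and 4). Cbx2 was thus the leading CBX RNA in each group. Phc1 made up 30.4 and 31.8 percent in clone 2, 44.8 and 44.9 percent in clone 1 and 35.4, 38.3, 33.5 and 35.6 percent in WT of the polyhomeotic FPKM. Ezh1 made up 3.92 ± 0.38 percent of the summed Ezh1 and Ezh2 FPKM in clone 2, 8.20 ± 0.86 percent in clone 1 and 5.79 ± 0.88 percent in WT, so that Ezh2 prevailed in all groups.

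Bmi1 held 32.9 ± 3.5 percent of the Bmi1 and Pcgf2 total in clone 2, 20.9 ± 4.2 percent in clone 1 and 28.9 ± 1.1 percent in WT. Rbbp7 held 51.6 and 53.6 percent in clone 2, 46.5 and 46.4 percent in clone 1 and 49.4, 47.8, 47.9 and 49.99 percent in WT of the Rbbp4 and Rbbp7 total, with the groups apart. The order of paralogues changed there: Rbbp7 was above Rbbp4 in both clone 2 libraries and below it in both clone 1 libraries and in all 4 WT libraries, where WT replicate 4 was nearly even. Ring1 held 32.2 and 35.2 percent in clone 2, 27.5 and 30.1 percent in clone 1 and 29.6, 27.1, 27.3 and 27.5 percent in WT of the ligase total, and its clone 1 share overlapped WT, since both ligases had lower means in clone 1 than in WT. Kmt2b ranged from 62.2 to 72.4 percent of the Kmt2a and Kmt2b total over the 8 libraries, with the highest share in clone 1 replicate 2. Yaf2 made up 43.9 to 48.7 percent of the Rybp and Yaf2 total and Mtf2 88.9 to 91.8 percent of the Polycomb-like total.

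**Figure D4:**
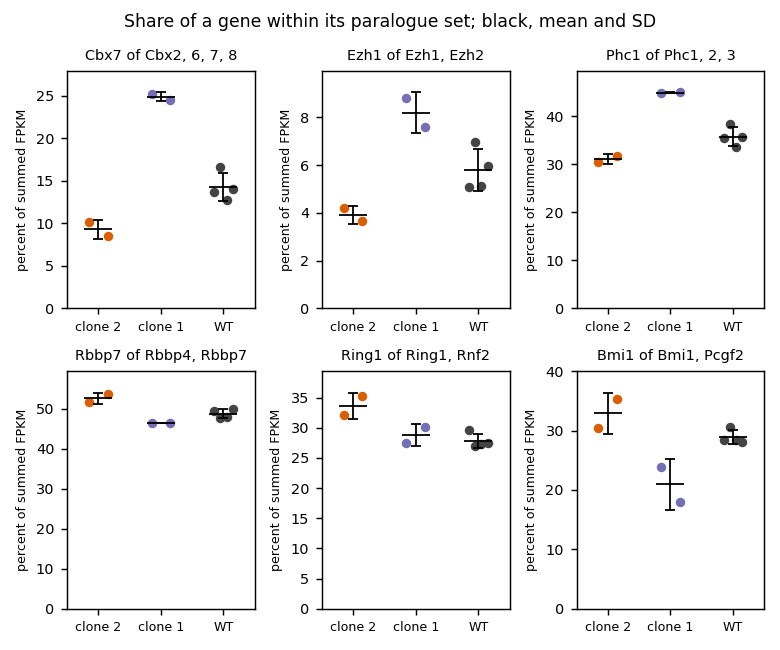
Share of a gene in the summed FPKM of its paralogue set, in percent, for each library of clone 2 (orange), clone 1 (purple) and WT (grey), with mean and SD in black. Cbx7 holds 8.54 to 10.1 percent in clone 2, 24.5 to 25.3 percent in clone 1 and 12.8 to 16.7 percent in WT, and Phc1 and Ezh1 have the same order of groups.

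The 2 libraries of clone 1 differed from each other in these genes more than those of clone 2 did. In clone 1, 34 of the 43 genes were lower in replicate 2 than in replicate 1, with a median log2 difference of -0.115, beside 70.1 percent of all genes with a median of -0.081. In clone 2, 18 of the 43 were lower in replicate 2, with a median of 0.009, beside 51.0 percent of all genes. The largest drops in clone 1 were those of Mtf2, Phf19, Phc3, Bcor, Bmi1 and Kmt2a. Across the 43 genes of clone 1 the difference went with the length of the longest annotated transcript, with a Spearman rho of -0.517, beside -0.416 across 14438 genes. In clone 2 rho was -0.012 across the members and 0.065 across all genes. Genes are not independent replicates and the points of a panel share the same 2 libraries. The part of the RNA composition of clone 1 replicate 2 in the lower clone 1 values was not tested. Leaving that library out leaves 1 library in clone 1. The lower calls of clone 1 against WT were then lost, and calls over all genes also became fewer. The clone 2 calls against WT were likewise lost without clone 2 replicate 2. Without clone 1 replicate 2 the median log2 fold change of the members in clone 1 against WT was 0.025, beside -0.012 over all genes. With both libraries it was -0.063, beside -0.048. Most calls between the clones were kept.

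**Figure D5:**
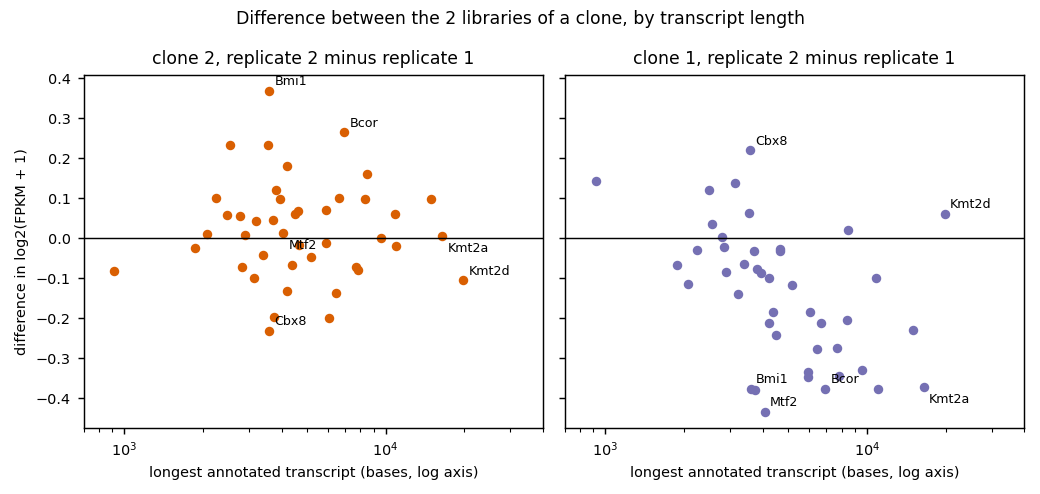
Difference between replicate 2 and replicate 1 of each clone in log2(FPKM + 1) for the 43 genes, against the length of the longest annotated transcript on a log axis. In clone 1 most genes lie below 0, long transcripts such as those of Kmt2a and Bcor among the lowest and that of Kmt2d above 0, while the clone 2 points scatter around 0.

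Further Polycomb genes were counted in a list of their own. The calls of this and the other further lists are given from the fit of all libraries, with none left out. Of 28 tested among 33 in the list, 1 was higher and 0 were lower in clone 2, 0 were higher and 7 lower in clone 1, and 10 were higher and 1 lower in clone 2 against clone 1. These are 3.57 and 0 percent in clone 2, 0 and 25.0 percent in clone 1 and 35.7 and 3.57 percent between the clones, beside 7.06 and 6.96, 4.16 and 11.4, and 24.9 and 15.0 percent of all genes. E2f6, the DNA-binding subunit of PRC1.6, passed in each clone, at 29.7 and 31.6 FPKM in clone 2, 20.0 and 19.9 FPKM in clone 1 and 26.6, 24.6, 25.2 and 26.8 FPKM in WT, with a log2 fold change against WT of 0.24 in clone 2 and -0.35 in clone 1. Its limma adjusted p was 0.025 in clone 2 and 0.0066 in clone 1. Hdac1, a histone deacetylase that PRC2 can recruit, fell in clone 1, at 105 and 103 FPKM against 119, 118, 119 and 119.5 FPKM in WT. Among 16 further Trithorax methyltransferase genes, 2 were higher in clone 2 (Setd1b, which places H3K4 trimethylation, and Hcfc2), 3 were lower in clone 1 (Psip1, Hcfc2 and Wdr82), and 6 were higher in clone 2 than in clone 1. These are 12.5, 18.75 and 37.5 percent of the list, beside 7.06, 11.4 and 24.9 percent of all genes. Psip1, which ties MLL complexes to chromatin, was at 276 and 282 FPKM in clone 2, 231 and 213 FPKM in clone 1 and 284, 269, 280.3 and 275 FPKM in WT.

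Of the 21 tested BAF remodeller genes, whose complexes can evict Polycomb from chromatin, 1 was lower in clone 2, 1 was higher and 5 were lower in clone 1, and 8 were higher and 1 lower in clone 2 against clone 1. These are 4.76 percent in clone 2, 4.76 and 23.8 percent in clone 1 and 38.1 and 4.76 percent between the clones, beside 6.96, 4.16 and 11.4, and 24.9 and 15.0 percent of all genes. Smarca2, or BRM, an ATPase of the complex, fell in clone 1, at 13.5 and 11.6 FPKM in clone 2, 7.07 and 6.90 FPKM in clone 1 and 13.0, 12.9, 13.2 and 11.9 FPKM in WT, with a log2 fold change of -0.79 (adjusted p = 0.0014). Smarcd2 moved in each clone, at 15.9 and 15.0 FPKM in clone 2, 24.7 and 23.3 FPKM in clone 1 and 17.9, 21.3, 19.1 and 19.3 FPKM in WT. Of 23 known Polycomb targets, 4 averaged at least 1 FPKM and were tested. Pax7 and Pax3, dorsal neural tube factors, rose in clone 2, with Pax7 at 2.62 and 3.30 FPKM in clone 2, 0.497 and 0.559 FPKM in clone 1 and 1.05, 0.773, 0.794 and 0.92 FPKM in WT. Neurog2, a proneural factor, rose in clone 1, at 1.30 and 0.501 FPKM in clone 2, 12.2 and 10.1 FPKM in clone 1 and 2.71, 6.91, 3.25 and 3.06 FPKM in WT, with an adjusted p of 0.049. Cdkn1c, a cell cycle inhibitor, fell in clone 1, at 35.2 and 33.0 FPKM against 39.7, 45.1, 43.6 and 43.0 FPKM in WT.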

How the data were processed

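Poly(A) RNA of 8 mouse anterior neural progenitor libraries was measured, and libraries were grouped by the line named in their labels. The authors' deposited table gives FPKM for each library. Beside these it holds the authors' mean read signal per genotype, whose scaling is not stated, their fold, a ratio of null to WT, and their p-value, whose test is not stated. The submitters' processing notes list FastQC, SAMtools, TopHat2, Cufflinks and DESeq2 with neither version nor role, and the builds GRCm38 and mm10. The labels name a TruSeq v2 kit.

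No read counts of single libraries were used, so library depth is unknown. The mean reads deposited by the authors came to 26864352 in null and 26693189 in WT over all genes, and in WT those of the 43 genes ran from 95.9 (Pcgf5) to 13802 (Rbbp4).

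As the values are FPKM, they were transformed to log2(FPKM + 1) and tested with limma (version 3.58.1, under R version 4.3.3), its trend and robust options switched on. Genes averaging at least 1 FPKM were tested, 14521 in all, with Benjamini-Hochberg adjustment over all of them and a threshold of 0.05. Null against WT was fitted with 2 groups. Each clone comparison used a model with 3 groups that share the spread between libraries, so its p-values do not cover the spread between lines. The fits were tested on simulated data, which had the same changes in both clones and no spread between lines. That test therefore does not cover differences between lines. Coordinates and transcript lengths are those of GENCODE M21 (GRCm38), and promoter windows those of RefSeq (GRCm38.p6). Alternatives were another pseudocount, no filter, rescaled libraries, plainer moderation, a replicate block, correlated libraries and leaving out each library.

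The 43 members and all gene lists were chosen with earlier results of these data known. Named were Lhx5, every member that passed in any comparison, the member with the smallest p of a role group where none passed, and up to 4 genes per further list and comparison. Genes whose exons overlap a member were named for that overlap, and Kdm5d, the cell type markers and the RNAs without poly(A) tails after their values were seen. The result of 1 further gene is not reported here.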

Additional observations from a re-analysis of the deposited data

Results flagged for a closer look

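For 20 of the 43 genes the change in clone 2 differed from the change in clone 1, as tested by the direct comparison of clone 2 with clone 1 in limma (adjusted p under 0.05). That is 46.5 percent of the members, beside 39.9 percent of all genes, so the count is near the share of all genes. The differences are log2 fold changes of clone 2 against clone 1. In PRC2 they were -0.815 for Ezh1, 0.214 for Ezh2, 0.487 for Rbbp7 and 0.132 for Rbbp4. Among the ligase and PCGF subunits of PRC1 they were 0.626 for Ring1, 0.317 for Rnf2, 0.91 for Bmi1 and -0.44 for Pcgf1. In canonical PRC1 they were -1.158 for Cbx7, 0.548 for Cbx2, 0.64 for Cbx8, -0.487 for Phc1 and 0.374 for Phc2. In variant PRC1 they were 0.381 for Yaf2, 0.317 for Rybp, 0.214 for Kdm2b and 0.556 for Bcor. Outside Polycomb they were 0.14 for Ash2l, 0.3 for Kdm6b and 0.248 for Crebbp.

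In 2 genes a single WT library lay far from the other 3. For Pcgf2 the gap was 0.831 of the range of the WT libraries, and for Scmh1 it was 0.850, which is above Dixon's 95% critical value for 4 samples. In both it was WT replicate 3, the lowest, at 47.95 FPKM for Pcgf2 and 10.1 FPKM for Scmh1. About 1 in 20 such groups is expected to pass this limit by chance.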

How the results depend on the processing

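No member was called in null against WT under any of the 15 alternatives run, which called 0.00689 to 0.73 percent of all genes. No called member changed sign under any alternative. Rescaling to a common median ratio gave 4 higher and 4 lower in clone 1 against WT, beside 6.8 and 6.67 percent of all genes. It gave 11 higher and 8 lower in clone 2 against clone 1, beside 19.8 and 20.7 percent of all genes. Without a filter on low values, 0 members were lower in clone 2 against WT, beside 1.75 percent of all genes. With each library left out in turn, clone 1 against WT had 2 to 3 higher and 0 to 15 lower, clone 2 against WT had 0 to 4 higher and 0 to 4 lower, and clone 2 against clone 1 had 8 to 20 higher and 3 to 8 lower. Where a clone was left with 1 library, that library was assumed to vary like the other groups. The number in the column headers did not pair the libraries (correlations of deviations -0.085 to 0.022). With it as a replicate block, 0 members were higher and 0 lower in clone 1 against WT, beside 0.131 and 0.117 percent of all genes. In clone 2 against WT 0 were higher and 0 lower, beside 0.0964 and 0.213 percent. In clone 2 against clone 1, 9 were higher and 4 lower, beside 12.7 and 7.89 percent. Lhx5 in null against WT then had a log2 fold change of -2.99 (limma adjusted p = 0.089). The pseudocount of 0.1 changed no call of a member, and limma without trend and robust moderation lost Phc2 and added Phf1 in clone 1, lost Suz12 in clone 2 and lost Rbbp4 between the clones. With 2 libraries per clone, the p-values measure the spread between libraries and not between lines.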
